A study of Medicago sativa with 12 samples.

Results

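The overall effect of salt on the leaf transcriptome of alfalfa (Medicago sativa L. cv. zhongmu 1#), a forage legume, was measured over all 12 libraries of the study. The 6 libraries from NaCl-treated plants were set against the 6 from plants that had no NaCl, with melatonin as the other factor of the fit. Each side holds 2 treatments of 3 libraries. Without salt these are CK, the normal control, and M, given melatonin alone. With salt they are S, given NaCl alone, and SM, given NaCl and melatonin together. All plants were of the same cultivar, and all libraries came from leaves of soil-grown seedlings. Libraries are numbered within a treatment (CK1, CK2 and CK3). The 3 libraries of a treatment are described as biological replicates of leaf samples. The hour of the day at which leaves were taken is not given in the sources used here, so a difference in sampling hour between treatments cannot be told apart from the treatment in genes that follow the day.

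Sodium chloride lowers the water potential around the root and brings sodium and chloride into the leaf. Plants are known to answer with abscisic acid (ABA), the hormone that closes stomata, with compatible solutes such as proline, with protective dehydrins and with enzymes that remove reactive oxygen. ABA is bound by receptors of the PYR/PYL family, which then block protein phosphatases 2C and release SnRK2 kinases. Chloroplasts are a main site of reactive oxygen in a salt-treated leaf, and photosynthesis and cell expansion are usually reduced.

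The reference used by the authors holds 4 copies of each of the 8 chromosomes of this tetraploid, and reads of near-identical copies can be split among them. Expression was therefore read at 2 levels, for each of 164632 gene models and for the sum of all gene models that carry the same description. Of these, 50931 gene models and 15402 descriptions had a mean of at least 1 FPKM (fragment counts scaled to transcript length and to library size) and were tested. Below, a level is a summed FPKM unless a gene model is named, and 3 levels in a row are the lowest, the median and the highest of the 6 libraries of one state. A difference is a log2 fold change, salt over no salt, ± its standard error from the edgeR quasi-likelihood test, with a p-value adjusted by the Benjamini-Hochberg method over everything tested at that level. A feature was called where that adjusted p was below 0.05.

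Primer pairs for qRT-PCR of 20 genes accompany these libraries. Those of 4 genes are shown, to give the sequence and place of single gene models whose levels differed with salt. The coordinates are those of the deposited table, whose build is not given in the sources used here.
PYL4 forward: tccctccacagagggtgact
PYL4 reverse: gctgtgtaatgttctctgcgg
NCED forward: cggtaccagaacaacccgt
NCED reverse: actggctcgaacattgggtt
SCL9 forward: taccacctgattgcacacct
SCL9 reverse: gcgaaaccgggtacttttcg
EBF1 forward: tgtgtgcgatctccgattcc
EBF1 reverse: tagtcccaaaagggtgtggc

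The PYL4 pair was designed on MS.gene052795, an ABA receptor model on chromosome 4.4 from 86285077 to 86285733 on the plus strand. Its FPKM was 0.776, 5.69 and 10.4 without salt and 0, 0.0848 and 0.53 with salt. It fell by 4.82 ± 1.08 (edgeR, adjusted p = 0.0273), and every salt library lay below every other. NCED, the enzyme class that makes the committed step of ABA synthesis, was probed at MS.gene34924 (chromosome 4.1, 16205484 to 16207310, minus strand). There the FPKM went from 0.0661, 0.191 and 0.571 to 0.864, 1.69 and 8.1 (3.37 ± 0.81, edgeR, adjusted p = 0.0362).

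SCL9, a GRAS-family transcription factor, and EBF1, an F-box protein that in Arabidopsis targets the ethylene factor EIN3, were chosen for display after their values were seen. SCL9 (MS.gene99623, chromosome 7.1, 39445076 to 39447304, minus strand) had 1.73, 2.16 and 2.41 FPKM without salt and 5.22, 7.52 and 8.58 with it, a rise of 1.78 ± 0.22 (edgeR, adjusted p = 0.00253). EBF1 (MS.gene015986, chromosome 1.4, 8539642 to 8541558, minus strand) fell from 37.3, 51.5 and 63.9 to 8.64, 12.7 and 20.3, by 1.92 ± 0.22 (edgeR, adjusted p = 0.00223). Neither gene's libraries overlapped between the states. Of the 18 primer targets that could be tested, 6 were called higher and 2 lower with salt. Among all tested gene models the shares were 2.98% and 2.62%. The paper describes the primer genes as differentially expressed in these same data, so this count is no independent support.

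Salt was associated with a broad change, with similar numbers of calls in each direction. At the level of descriptions 3337 of 15402 were called (21.7%), 1618 higher (10.5%) and 1719 lower (11.2%). Of the gene models, 2854 of 50931 were called (5.6%), 1518 higher (2.98%) and 1336 lower (2.62%). The count of gene models was 1675 without CK2, 1444 without CK3 and 1887 without SM2. The median log2 difference was 1.15 among descriptions called higher and -1.14 among those called lower, against -0.005 over all. Libraries were scaled by TMM, which assumes that most features do not change. The median near 0 and the similar counts therefore cannot show that total RNA changed equally in both directions. In 1727 descriptions (11.2%) the 6 salt libraries did not overlap with the 6 others, with 959 higher (6.23%) and 768 lower (4.99%). The first principal component of the description sums held 30.3% of the variance and separated all 6 salt libraries from all 6 others. Library totals lay between 45862158 and 57192229 estimated counts, and no library lacked depth relative to the rest.

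**Figure D1:**
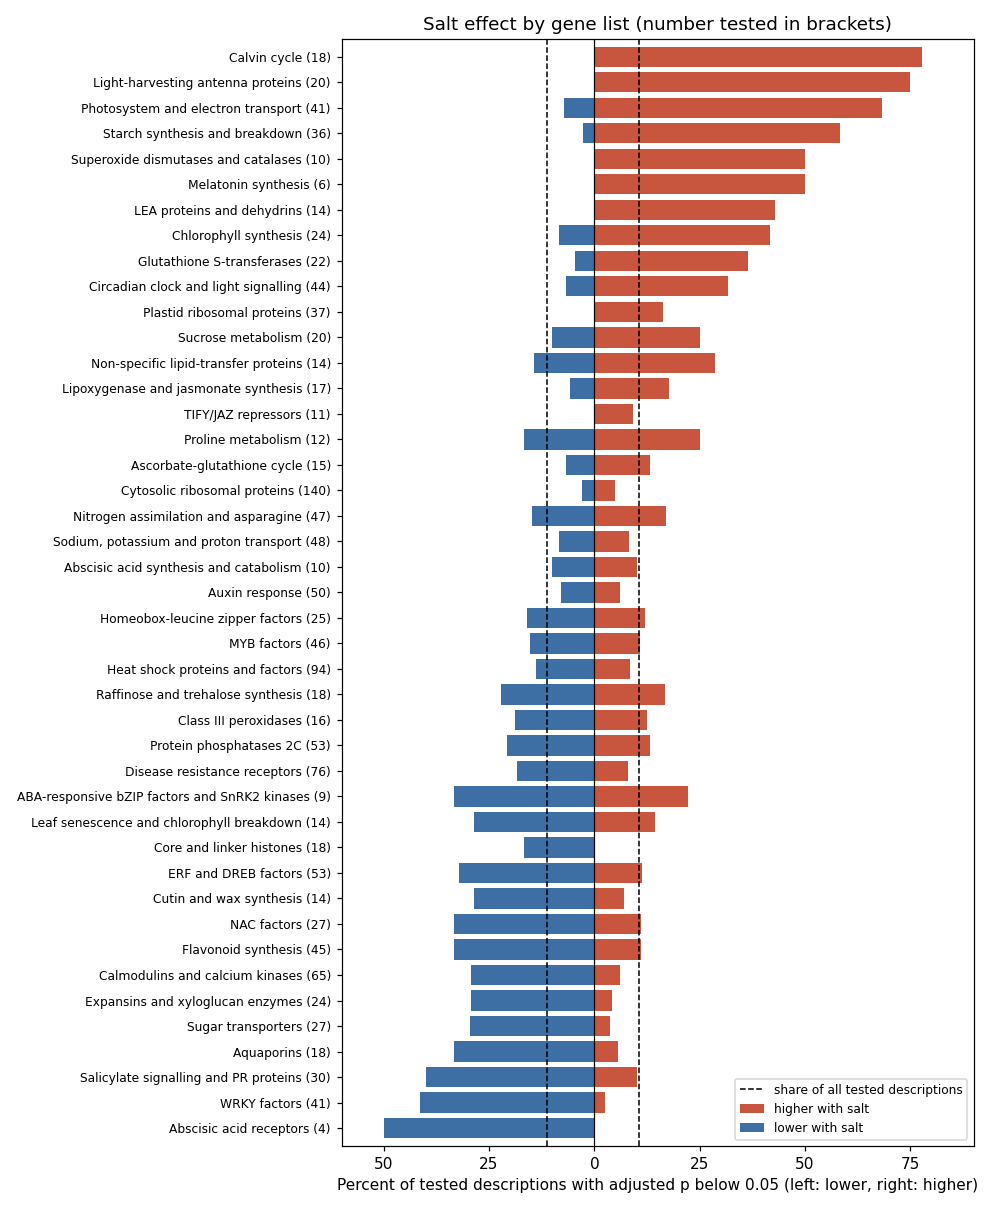
Percent of tested descriptions called higher (right) or lower (left) with salt in each gene list, with the number tested in brackets and dashed lines at the share among all tested descriptions (10.5% and 11.2%). Calvin cycle, light-harvesting and photosystem lists extend farthest to the right, and ABA receptors, WRKY factors and salicylate or PR proteins farthest to the left.

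The leaf label was checked against markers. Of 42 tested mesophyll descriptions 30 were called higher and 0 lower (edgeR). Their summed level was 16020, 28070 and 40180 without salt and 53320, 55630 and 86020 with it. The markers leave out the description "chlorophyll a/b binding protein", with a mean of 56600 FPKM. It differed by -0.13 and was not called (edgeR, adjusted p = 0.733), and was named after its values were seen. The total of the antenna list, which holds it, overlapped between the states. Root and nodule markers summed to 13.9 to 154.5 FPKM over all 12 libraries, and 18 of their 30 descriptions were at 0 in every library. Markers of dividing cells totalled 1770 to 3074 without salt and 1621 to 2431 with it, with overlap. Of 28 tested, 4 were called lower (14.3%), near the 11.2% of all descriptions, and 0 higher. Markers of senescing leaf totalled 559.5 to 1219 and 289.1 to 681.7, also with overlap, and 2 of only 4 tested were called lower. In whole leaves, more cells of a type and more RNA per cell cannot be told apart. The part of marker differences in the results below was not tested.

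Photosynthesis lists had the highest shares of rises among the lists examined. Of 41 tested photosystem and electron transport descriptions 28 were called higher and 3 lower, with a median difference of 1.21. Light-harvesting antenna descriptions were called higher in 15 of 20 cases and lower in 0 (median 2.34), and Calvin cycle enzymes in 14 of 18 and 0 (median 1.68). These lists share members with the mesophyll markers above. The Calvin cycle total overlapped between the states, at 3789 to 6762 without salt and 6377 to 18510 with it. Summed over the photosystem list, the level was 12910, 18090 and 23480 without salt and 35980, 39460 and 60400 with salt, with no overlap.

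The photosystem II 22 kDa protein, PsbS, is needed to dissipate excess light as heat. Its level was 2.99, 5.11 and 7.8 without salt and 109, 172 and 468 with salt. Every salt library was thus far above every other, and the rise was 5.32 ± 0.38 (edgeR, adjusted p = 3.48e-05), with all 3 of its gene models called higher. One of them, MS.gene013827 on chromosome 3.1, rose by 5.27 ± 0.39 (edgeR, adjusted p = 0.000878). Oxygen-evolving enhancer protein 2 (isoform X1), of the water-splitting complex, went from 491, 861 and 1050 to 2720, 3420 and 5040 (2.05 ± 0.22, edgeR, adjusted p = 0.00018). NDH-DEPENDENT CYCLIC ELECTRON FLOW 5, needed for the chloroplast NDH complex, went from 13, 15.3 and 21.5 to 42.1, 57.3 and 61.8 (1.72 ± 0.13, edgeR, adjusted p = 3.48e-05). Neither overlapped between the states.

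Among antenna proteins, chlorophyll a-b binding protein 6 rose from 31.9, 67.3 and 98.7 to 490, 790 and 1580 (3.59 ± 0.38, edgeR, adjusted p = 0.000171), and chlorophyll a-b binding protein 7 from 392, 785 and 935 to 2130, 4040 and 5240 (2.36 ± 0.3, edgeR, adjusted p = 0.000365). The rise did not extend to the most abundant antenna descriptions, which were singled out after their values were seen. The description "chlorophyll a/b binding protein", with a mean of 56600 FPKM, differed by -0.13 (edgeR, adjusted p = 0.733). "chlorophyll a-b binding protein AB80, chloroplastic", with a mean of 11000 FPKM, differed by 0.21 (edgeR, adjusted p = 0.754). Since these dominate the list, the total of all antenna descriptions overlapped between the states, at 40220 to 95480 without salt and 77220 to 93530 with it.

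The 3 photosystem-list members called lower were "ferredoxin, root R-B1" (-1.16, edgeR, adjusted p = 0.00691), "ferredoxin--NADP reductase, root isozyme, chloroplastic" (-0.79, edgeR, adjusted p = 0.011) and "ATP synthase gamma chain 2, chloroplastic" (-0.88, edgeR, adjusted p = 0.0132). The first and second are forms named for the root, where they carry electrons to nitrite reduction rather than from photosystem I. The leaf forms moved the other way, with "ferredoxin, leaf L-A" at 2.98 (edgeR, adjusted p = 0.000442) and "ferredoxin--NADP reductase, leaf isozyme, chloroplastic" at 1.93 (edgeR, adjusted p = 0.000789). All descriptions in this paragraph were singled out after their values were seen.

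**Figure D2:**
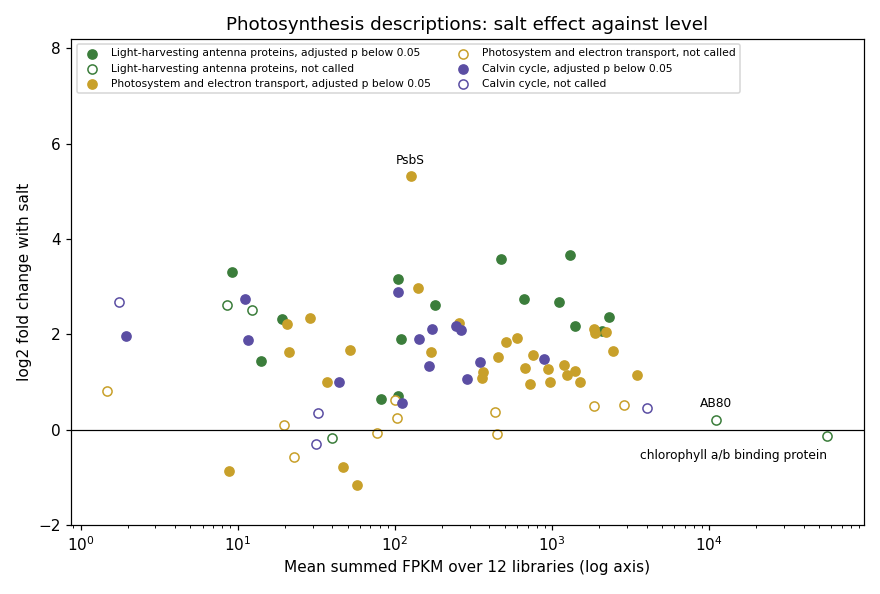
Log2 fold change with salt (vertical) against mean summed FPKM over 12 libraries (horizontal, log axis) for descriptions of 3 photosynthesis lists, filled where adjusted p was below 0.05. Most points lie above 0, PsbS is highest at 5.32, and the antenna description with the highest level, at 56600 FPKM, lies near 0.

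In the Calvin cycle, sedoheptulose-1,7-bisphosphatase, which commits carbon to regeneration of the CO2 acceptor, rose from 10.7, 21.2 and 38.1 to 120, 162 and 329 (2.89 ± 0.3, edgeR, adjusted p = 0.000154). Transketolase went from 147, 192 and 220 to 421, 459 and 723 (1.41 ± 0.17, edgeR, adjusted p = 0.000282). Neither overlapped. The most abundant small subunit of Rubisco, the CO2-fixing enzyme, was again among those not called, with a difference of 0.45 (edgeR, adjusted p = 0.348) at a mean of 4040 FPKM ("RecName: Full=Ribulose bisphosphate carboxylase small chain, chloroplastic; Short=RuBisCO small subunit; Flags: Precursor", singled out after its values were seen).

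Enzymes around the chloroplast rose with these. Mitochondrial serine hydroxymethyltransferase, which turns glycine from photorespiration into serine, went from 66.5, 86.8 and 110 to 253, 311 and 512 (1.83 ± 0.14, edgeR, adjusted p = 3.48e-05). Ferredoxin-dependent glutamate synthase, which makes glutamate from glutamine, went from 43.3, 56.5 and 80.5 to 143, 176 and 216 (1.49 ± 0.12, edgeR, adjusted p = 4.94e-05). In both, the lowest salt library exceeded the highest other one. Chlorophyll synthesis had 10 of 24 descriptions called higher and 2 lower (median 0.58). The magnesium-protoporphyrin IX monomethyl ester cyclase of that pathway rose from at most 110 to at least 324 (3.01 ± 0.31, edgeR, adjusted p = 0.000152). Plastid ribosomal proteins had 6 of 37 called higher and 0 lower (median 0.3), and cytosolic ribosomal proteins 7 and 4 of 140 (median 0.1). The plastid count was 1 to 3 when any of CK1, CK2, CK3, M3, S2, S3, SM1 or SM3 was left out, and the higher cytosolic count was 3 or 4 without S1, CK3, S3 or SM3.

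Starch genes showed the same direction, in a list that holds both synthesis and breakdown. Of 36 tested starch descriptions 21 were called higher and 1 lower (median 1). Their total was 707.7, 786.9 and 881.4 without salt and 1118, 1305 and 2250 with it. ADP-glucose pyrophosphorylase makes the sugar nucleotide from which starch is built. Its large subunit 3 rose from 9.89, 13.5 and 16.7 to 49, 61.6 and 97 (2.24 ± 0.2, edgeR, adjusted p = 6.54e-05), and its small subunit 1 from 5.52, 7.96 and 16.6 to 30.7, 55.5 and 113 (3.31 ± 0.35, edgeR, adjusted p = 0.000171). Starch branching enzyme 1 (isoform X1) went from 6.07, 11.1 and 13.9 to 22.4, 26.8 and 30.6 (1.37 ± 0.17, edgeR, adjusted p = 0.000352). None of these overlapped. On the side of breakdown, the beta-amylase description, singled out after its values were seen, also rose, by 3.58 (edgeR, adjusted p = 0.00241). By contrast, sugar transporters had 8 of 27 called lower and 1 higher. Sugar transport protein 1 fell from 10.4, 18.4 and 39 to 3.63, 5.24 and 7.19, by 1.87 ± 0.22 (edgeR, adjusted p = 0.000263).

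Genes for osmolytes and protection rose in part. Delta-1-pyrroline-5-carboxylate synthase (isoform X2), the rate-limiting enzyme of proline synthesis, had a level of 35.4, 54.3 and 62.6 without salt and 222, 250 and 413 with salt. The states did not overlap, and the rise was 2.48 ± 0.22 (edgeR, adjusted p = 6.55e-05). It was uneven over the gene copies, with 4 of 8 models called, among them MS.gene037710 on chromosome 4.3, whose rise was 8.27 ± 0.65 (edgeR, adjusted p = 0.000878). Pyrroline-5-carboxylate reductase, the next step, went from 4.16, 14.1 and 17.4 to 53.1, 70.6 and 93.5 (2.46 ± 0.27, edgeR, adjusted p = 0.000202). Over the whole proline list, which includes breakdown, 3 of 12 were called higher and 2 lower.

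Of 14 tested LEA proteins and dehydrins, which protect proteins and membranes from drying, 6 were called higher and 0 lower (median 1.12), or 3 higher where a mean of at least 5 FPKM was required. Their summed level had a lower median with salt and overlapped between the states, at 41380, 50240 and 60480 without salt and 26950, 35070 and 56150 with it. Most of it came from the description "abscisic acid and environmental stress-inducible protein", with a mean of 37600 FPKM and a difference of -0.57 that was not called (edgeR, adjusted p = 0.0971), which was singled out after its values were seen. Cold and drought-regulated protein CORA rose from 39.1, 91.9 and 187 to 286, 466 and 678 (2.2 ± 0.36, edgeR, adjusted p = 0.00166). The Y2K4 dehydrin variant rose from 4.36, 21.4 and 67.9 to 128, 201 and 466 (3.02 ± 0.62, edgeR, adjusted p = 0.00536). Both kept the states apart. Raffinose and trehalose genes were mixed, with 3 of 18 called higher (16.7%) and 4 lower (22.2%), against 10.5% and 11.2% of all tested descriptions.

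Superoxide dismutases and catalases had 5 of 10 called higher and 0 lower (median 0.97), all 5 of them superoxide dismutases or their copper chaperone. Chloroplastic Cu-Zn superoxide dismutase rose from 8.6, 23.8 and 50 to 89.5, 142 and 289 (2.52 ± 0.34, edgeR, adjusted p = 0.000485), and the copper chaperone that loads it from 13.5, 19.5 and 44 to 55, 81.3 and 106 (1.76 ± 0.23, edgeR, adjusted p = 0.000455). Glutathione S-transferases had 8 of 22 called higher and 1 lower, while their median was 0.04. Glutathione S-transferase 3 went from 57.6, 73.5 and 93 to 171, 220 and 271 (1.56 ± 0.14, edgeR, adjusted p = 6.55e-05). The ascorbate-glutathione list stood near the background, at 2 of 15 higher and 1 lower.

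Of the 4 tested ABA receptors 2 fell. PYL4 had a level of 64.3, 121 and 205 without salt and 1.05, 3.88 and 5.66 with salt. No library crossed between the states, and the fall was 5.32 ± 0.44 on the log2 scale (edgeR, adjusted p = 5.13e-05). It was shared by its copies, since all 14 tested gene models of 16, on copies of chromosomes 3, 4, 5 and 7, were called lower. PYR1 dropped from 11.7, 25.7 and 37.3 to 0.849, 1.97 and 3.71, by 3.58 ± 0.4 (edgeR, adjusted p = 0.00021), with all 4 tested models lower. PYL9, the most abundant of the receptors under salt, went from 167, 206 and 252 to 125, 176 and 203, a difference of -0.3 ± 0.14 that was not called (edgeR, adjusted p = 0.154). The remaining tested receptor, abscisic acid receptor PYL8, differed by 0.09 (edgeR, adjusted p = 0.754) and was named after its values were seen.

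**Figure D3:**
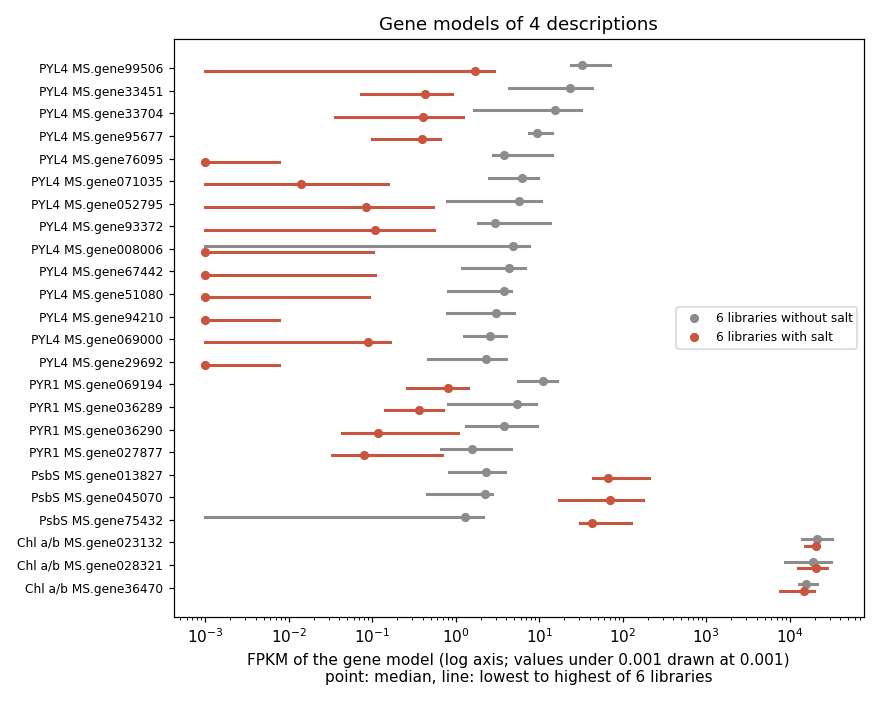
FPKM of the tested gene models of 4 descriptions (log axis), with the median as a point and the range of 6 libraries as a line, without salt in grey and with salt in red. The medians of PYL4 models shift to the left with salt in all 14 cases, those of the 3 PsbS models to the right, and those of the chlorophyll a/b binding protein models (Chl a/b) stay in place.

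Elsewhere in ABA metabolism 1 of 10 descriptions was called in each direction (10%), near the 10.5% and 11.2% of all tested descriptions. The putative NCED rose from 0.221, 0.484 and 1.2 to 2.1, 4.49 and 12.6 (3.16 ± 0.53, edgeR, adjusted p = 0.00185). Abscisic acid 8'-hydroxylase 4, which degrades ABA, fell from 13.3, 47.3 and 170 to 0.643, 2.27 and 16.8, by 4.15 ± 0.75 (edgeR, adjusted p = 0.00269), with overlap between the states. None of its 4 tested gene models was called. Protein phosphatases 2C were called higher in 7 (13.2%) and lower in 11 (20.8%) of 53 cases, against 10.5% and 11.2% of all. Phosphatase 2C 24 rose from 16.1, 25.2 and 46.8 to 113, 125 and 144 (2.14 ± 0.24, edgeR, adjusted p = 0.000232). The kinase SAPK2 fell from 21.9, 30.9 and 40.8 to 11.6, 15.8 and 18.4, by 0.98 ± 0.17 (edgeR, adjusted p = 0.00229), with 0 of 4 tested gene models called.

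Among genes of melatonin synthesis 3 of 6 were called higher and 0 lower (edgeR, median 1.21). Serotonin N-acetyltransferase 2, of this pathway, went from 7.65, 12.1 and 13.7 to 22.4, 32.8 and 48.4 (1.49 ± 0.23, edgeR, adjusted p = 0.00103), and the states did not overlap.

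In 3 stress-related families of transcription factors, lower calls outnumbered higher ones. Of 41 tested WRKY factors 17 were called lower and 1 higher (median -0.93), and their total was 1207, 1488 and 2073 without salt and 614.4, 759.1 and 1093 with it. WRKY factor 6 fell from 110, 123 and 164 to 5.91, 24.4 and 65.8, by 2.34 ± 0.42 (edgeR, adjusted p = 0.00252), and WRKY factor 15 (isoform X1) from 84.8, 112 and 156 to 28.5, 36.6 and 60, by 1.59 ± 0.2 (edgeR, adjusted p = 0.000375). Both kept the states apart. ERF and DREB factors were called lower in 17 and higher in 6 of 53 cases. C-repeat binding factor 2, of the cold and drought branch, was among the 6, rising from 2.44, 3.87 and 9.59 to 29.8, 49.1 and 70.1 (3.34 ± 0.39, edgeR, adjusted p = 0.000247).

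NAC factors had 9 of 27 called lower and 3 higher, the lower count being 5 without CK3. NAC 72, an ABA-responsive member in Arabidopsis, was one of the 3, at 36.2, 53.6 and 72.6 without salt and 86, 95.6 and 117 with it (0.81 ± 0.14, edgeR, adjusted p = 0.00242). Clock and light-signalling genes had 14 of 44 called higher and 3 lower (median 0.26). CONSTANS-LIKE 6 rose from 4.43, 5.48 and 9.57 to 16.4, 45.4 and 81.3 (2.83 ± 0.34, edgeR, adjusted p = 0.000282), and CONSTANS-like 1 from 16.1, 35.5 and 52.8 to 88.8, 177 and 198 (2.23 ± 0.28, edgeR, adjusted p = 0.000377). Neither overlapped.

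Lower calls also outnumbered higher ones among genes of pathogen perception and defence. FLS2 is the receptor that recognises bacterial flagellin. Its level was 36.4, 46.1 and 67.5 without salt and 3.44, 3.98 and 5.96 with salt. It fell by 3.77 ± 0.19 (edgeR, adjusted p = 1.5e-06), with no overlap and with 6 of 8 tested models called lower. Calcium-dependent protein kinase 28, which in Arabidopsis restrains immune signalling, fell from 41.1, 62 and 98.3 to 9.81, 15.3 and 21.5, by 2.1 ± 0.19 (edgeR, adjusted p = 6.55e-05). Calmodulins and calcium kinases as a list had 19 of 65 called lower and 4 higher. Salicylate signalling and PR proteins had 12 of 30 called lower (40%) and 3 higher (10%), with a median of -0.67. Disease resistance receptors had 14 of 76 called lower (18.4%) and 6 higher (7.89%), against 11.2% and 10.5% of all tested descriptions. The higher count of these receptors was 3 without CK1, CK3, M1 or SM2. The class-10 pathogenesis-related protein 1 fell from 55.5, 110 and 227 to 1.59, 2.23 and 12.8, by 5.26 ± 0.61 (edgeR, adjusted p = 0.000247). A fall with the same adjusted p as that of FLS2 was found for cytochrome b561 and DOMON domain-containing protein At5g47530, from 148, 187 and 298 to 24.2, 31.1 and 37.5 (-2.99 ± 0.15, edgeR, adjusted p = 1.5e-06).

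Flavonoid synthesis had 15 of 45 called lower and 5 higher (median -0.59), and its total overlapped between the states, at 648.9 to 1789 without salt and 587.5 to 813.4 with it. Chalcone reductase, which directs the pathway to the deoxy-isoflavonoids of legumes, fell from 37.6, 139 and 214 to 1.63, 8.33 and 8.82, by 4.42 ± 0.58 (edgeR, adjusted p = 0.000455). Isoflavone reductase, of the medicarpin branch in alfalfa, fell from 6, 60.2 and 86.2 to 0.233, 0.698 and 1.81, by 5.8 ± 0.8 (edgeR, adjusted p = 0.000605). The states did not overlap in either. The higher count was 3 without CK1 or SM2, and the lower count was 8 where only descriptions with a mean of at least 5 FPKM were tested.

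Wall-loosening and water-channel genes had more falls than rises. Of 24 tested expansins and xyloglucan enzymes, which loosen walls during growth, 7 were called lower and 1 higher (median -1.91), and 12 were lower when S3 was left out. Their total went from 3744, 4408 and 5317 to 288.2, 568.5 and 992.6, with no overlap. Xyloglucan endotransglucosylase/hydrolase 23 fell from 1380, 1770 and 3020 to 16.6, 85.9 and 307, by 4.38 ± 0.49 (edgeR, adjusted p = 0.000221). Cellulose synthase A catalytic subunit 3, of the primary wall, moved the other way, from 3.24, 6.44 and 7.77 to 32.8, 49.7 and 54.1 (2.99 ± 0.22, edgeR, adjusted p = 3.48e-05).

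Aquaporins, the water channels, had 6 of 18 called lower and 1 higher, the latter count being 3 without M1 and 2 without S2. PIP2-7, of the plasma membrane, fell from 89.7, 129 and 206 to 9.49, 30.2 and 39.9, by 2.59 ± 0.34 (edgeR, adjusted p = 0.000454). A NIP-type aquaporin was the exception, with 10.7, 14.6 and 24.2 without salt and 61.2, 101 and 141 with it (2.61 ± 0.28, edgeR, adjusted p = 0.000171). The transporters of sodium, potassium and protons were close to the background, with 4 of 48 called in each direction (median 0). Potassium transporter 1 fell from 5.29, 8.2 and 15 to 0.723, 1.6 and 2.62, by 2.54 ± 0.42 (edgeR, adjusted p = 0.00174), with 0 of 2 tested gene models called. Plasma membrane ATPase 4 (isoform X1), a proton pump, rose from 14.3, 20.6 and 25.1 to 32.4, 42.3 and 73.6 (1.1 ± 0.2, edgeR, adjusted p = 0.0026).

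**Figure D4:**
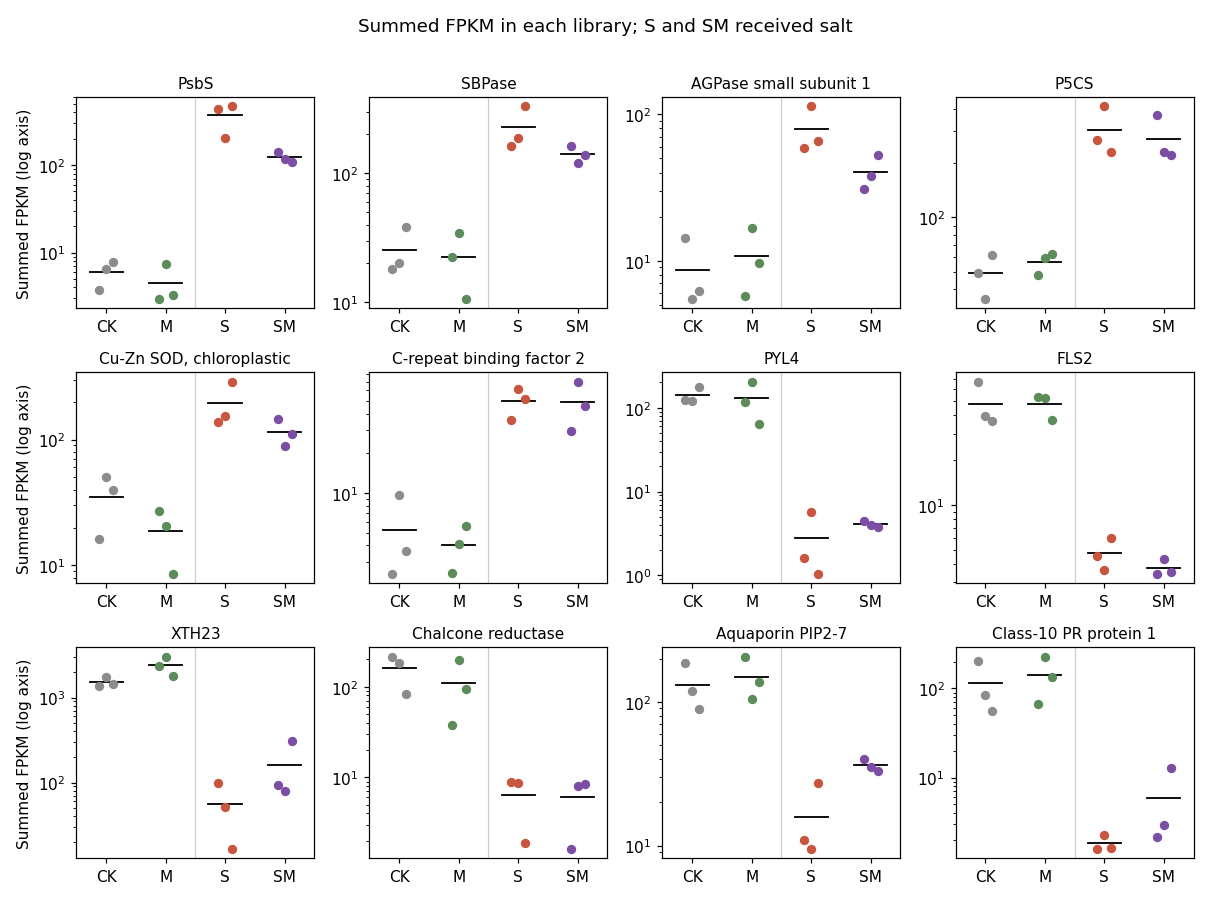
Summed FPKM of 12 descriptions in each library (log axes), by treatment, with 3 points per treatment and a line at their mean. S and SM lie above CK and M in the upper 6 panels and below them in the lower 6.

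The salt effect was then read within each melatonin state, as S against CK and SM against M, which share no library. In S against CK 1004 descriptions were called higher (6.52%) and 881 lower (5.72%). In SM against M 469 were higher (3.05%) and 607 lower (3.94%). Both contrasts called 652 descriptions, which is 34.6% of the former and 60.6% of the latter, and 649 of these had the same direction. The difference between the 2 salt effects, tested as the interaction in edgeR, was called for 0 of 15402 descriptions (0%), with 1244 at an unadjusted p below 0.05 and 163 called by DESeq2, and for 14 gene models (0.0275%). It was called for 2 descriptions without S2 and for 1 without M3 or SM3. The counts of each state leaned on single libraries. S against CK had 1168 called descriptions without CK2, 1071 without CK3 and 1096 without S3, against 1885 in all, and SM against M had 479 without M2, 306 without SM1, 412 without SM2 and 641 without SM3, against 1076. Over all tested descriptions the 2 differences had the same sign in 70.6% of cases, and their Pearson correlation across descriptions, which are not independent, was 0.44.

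**Figure D5:**
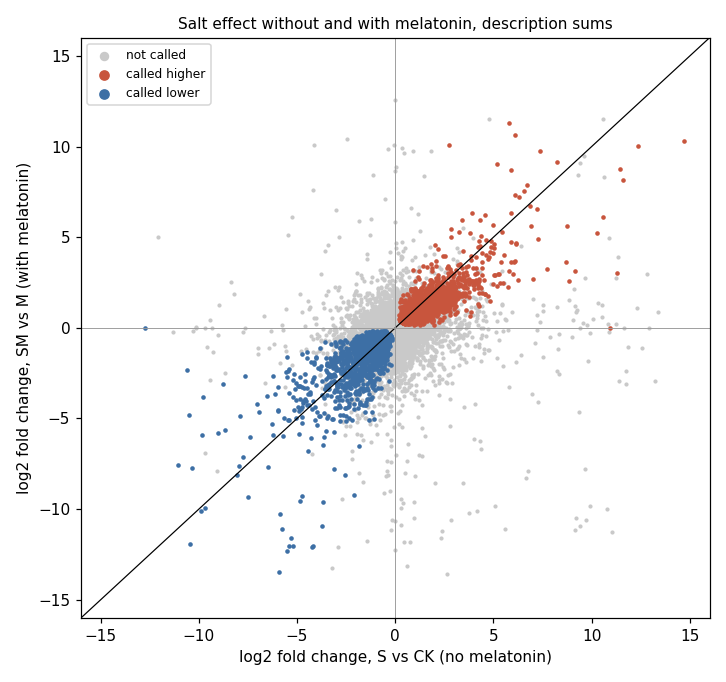
Log2 fold change of SM against M (vertical) against that of S against CK (horizontal) for 15402 description sums, with a line of equality. Descriptions called higher (red) or lower (blue) over both states lie mainly at the upper right and lower left.

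PsbS and PYL4 were named for their low p over both states together, so their differences within each state are no separate test. Of the 3337 descriptions called over both states, 1383 were called in neither contrast. PsbS differed by 5.91 in S against CK (edgeR, adjusted p = 0.000197) and by 4.73 in SM against M (edgeR, adjusted p = 0.00157). PYL4 differed by -5.68 and -4.96. The photosynthesis lists had larger medians without melatonin, at 2.75 and 1.72 for antenna proteins, 1.46 and 0.85 for photosystem and electron transport and 2.03 and 1.27 for the Calvin cycle. The S against CK difference was the larger one in 18 of 20, 35 of 41 and 16 of 18 descriptions of these lists, against 53.2% of all descriptions. None of their interactions was called, and 7, 10 and 3 had an unadjusted p below 0.05 in edgeR. Expansins and xyloglucan enzymes had medians of -0.97 and -2.71. All 11 tested TIFY/JAZ repressors, which hold back jasmonate responses, had a higher difference in S against CK, with medians of 1.08 and -2.13 and an overall count of 1 called higher, TIFY 3 (1.74, edgeR, adjusted p = 0.0423). None of the 4 tested gene models of TIFY 3 was called. The call of its sum was lost without any 1 of CK1, CK2, CK3, M1, M3, S1, S2, S3 or SM2. For 6 of the 11 the interaction had an unadjusted p below 0.05, and the lowest adjusted p among them was 0.514 (edgeR). The 11 share the same libraries and are not separate observations. TIFY 5A (isoform X1) stood at 152 FPKM in M2, against 9.71 in M1 and 7.02 in M3. The total of the list without salt had a median of 389.6 and a highest value of 1808. How far the median of -2.13 rests on M2 was not tested.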

How the data were processed

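Leaves of 12 samples in 4 treatments were sequenced, and the table deposited by the authors gives, for each gene model and library, FPKM values and whole-number estimated counts. The submitters' processing notes name cutadapt, HISAT2 2.0.4 and StringTie. The genome build is not given in the sources used here. FPKM deposited by the authors are normalised to transcript length and mapped fragments, with 0 written as 0.0001, which was set back to 0. Authors' fold changes and p-values were not used. Near-identical copies can exchange reads, so counts were also summed over models with the same description. Estimated counts were tested with edgeR 4.0.16 in R 4.3.3 (quasi-likelihood, TMM, melatonin and salt as additive factors, mean FPKM of at least 1, Benjamini-Hochberg, adjusted p below 0.05). Standard errors are the fold change divided by the root of F, and restate the test. A fit of 4 group means gave S against CK, SM against M and their interaction. DESeq2 1.42.0 and limma 3.58.1 on log2(FPKM + 1) or log2(FPKM + 0.1) were alternatives. Testing was checked on simulated counts.

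Names in the text were taken from those a rule selects: the 10 descriptions with the lowest p and the 5 with the largest difference in each direction among those called with a mean of at least 5 FPKM, the 3 with the lowest p in each list, and the 5 gene models with the lowest p in each direction. Names outside it are marked. Not every gene the rule selects is described. The comparison and lists were chosen with earlier results of these data known, and list patterns were corrected for false matches after the table was seen. The biological coefficient of variation was 0.92 for models and 0.56 for sums. Replicates are biological leaf samples. The paper gives a single plant per pot and says that the experiment was repeated 3 times. Whether the library numbers stand for these repeats, and whether any samples shared a day, was not stated.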

Additional observations from a re-analysis of the deposited data

Results flagged for a closer look

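Sets of 6 libraries of one salt state were taken over the named genes. In 11 of 138 sets 1 library stood apart by the Dixon criterion at the 95% level, always as the highest. That level assumes normal values, while these are untransformed FPKM and each set pools 2 treatments. The count can therefore not be read against a chance rate. S3 was that library 4 times and SM3 3 times. S3 was highest of the salt libraries for serine hydroxymethyltransferase (512, the others 253 to 334), chloroplastic Cu-Zn superoxide dismutase (289, the others 89.5 to 155), sedoheptulose-1,7-bisphosphatase (329, the others 120 to 188) and SAUR50 (39.8, the others 12.1 to 18.5). SM3 was highest for xyloglucan endotransglucosylase/hydrolase 23 (307, the others 16.6 to 98.9), class-10 pathogenesis-related protein 1 (12.8, the others 1.59 to 2.95) and cell number regulator 9 (0.874, the others 0 to 0.278). S2 was highest for the Y2K4 dehydrin (466, the others 128 to 227) and S1 for the putative NCED (12.6, the others 2.1 to 5.04). Without salt, CK3 was highest for the proline synthesis model MS.gene037710 (0.781, the others 0.0532 to 0.277), and M2 was highest for TIFY 3 (34.5, the others 9.02 to 17.2).

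The salt effect differed between the melatonin states, by the interaction test of edgeR, in 14 gene models. In 13 of them 1 whole treatment of 3 libraries was at 0, so that no fold is given, and none of their description sums had an interaction (lowest adjusted p = 0.514). The adjusted p was 0.00302 for MS.gene023241, MS.gene96686, MS.gene046972, MS.gene007457, MS.gene20144, MS.gene20225 and MS.gene32989. It was 0.00634 for MS.gene34383, a dioxygenase of methionine salvage, whose mean FPKM was 0 in SM against 19.8 (CK), 23.7 (M) and 64.8 (S). The others were MS.gene94807 (0.025), MS.gene73430 (0.0306), MS.gene021200 (0.038), MS.gene049285 (0.038) and MS.gene070003 (0.0457). MS.gene23547, a putative 4-hydroxy-tetrahydrodipicolinate synthase of lysine synthesis, was the one with counts in every treatment (0.0434), where the mean FPKM was 15.3 in CK against 4.67 in S, and 3.31 in M against 10 in SM.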

How the results depend on the processing

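The count of called descriptions, 3337, stayed within 1.5 times under all alternatives run, from 2486 with a 2-fold and unadjusted p threshold to 4457 with DESeq2, and from 2603 (without CK3) to 3147 with 1 library left out. The count of gene models, 2854, moved further, to 7477 with the 2-fold and unadjusted p threshold, 7467 with DESeq2, 1626 with no filter, 4870 and 4382 with limma on log2(FPKM + 1) and log2(FPKM + 0.1), and from 1444 to 2316 with 1 library left out. The tests within each melatonin state were repeated with alternatives added after seeing the data. DESeq2 called 3237 descriptions in S against CK (1885 in edgeR), 2413 in SM against M (1076) and 163 for the interaction (0). With 1 library left out these ranged from 1071 to 2023, from 306 to 1177 and from 0 to 2. No pairing of libraries by replicate number was seen, since the 18 same-number pairs of deviations correlated between -0.065 and 0.027. This does not settle whether the numbers stand for repeats of the experiment. The replicate block gave 1657 gene models and 2888 descriptions, with 3 aquaporins lower in place of 6 and 0 TIFY/JAZ repressors higher in place of 1. TIFY 3 missed the threshold in 10 of 21 alternatives (adjusted p up to 0.116). Of 3410 values of named genes under alternatives, 3352 kept their direction and side of the threshold, 58 kept the direction but missed the threshold and 0 reversed. Small list counts often moved by over 1.5 times. The cause of these shifts was not tested. With 3 libraries a treatment, and near-identical copies sharing reads, changes of single gene models are less firmly resolved than those of summed descriptions.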

Other observations

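Groups outside the account above also held single genes with large salt differences. Among transcription factors, MYB48 rose from 17, 29.2 and 50.1 to 84.7, 173 and 234 (2.32 ± 0.26, edgeR, adjusted p = 0.000212), while MYB44, an ABA-responsive repressor in Arabidopsis, fell from 332, 382 and 445 to 153, 197 and 235, by 1.02 ± 0.13 (edgeR, adjusted p = 0.000383). The list of MYB factors had 5 of 46 called higher (10.9%) and 7 lower (15.2%), near the 10.5% and 11.2% of all tested descriptions. Homeobox-leucine zipper factor HAT5 rose from 34.8, 70.1 and 160 to 170, 320 and 448 (1.91 ± 0.28, edgeR, adjusted p = 0.000831). ATHB-54 of the same class stood at 4.78, 10.2 and 14.7 without salt and at 0, 0 and 0.129 with it, a difference of -7.8 ± 1.06 (edgeR, adjusted p = 0.000533). With most salt libraries at 0 the size of that difference depends on the prior count, and it was -3.28 with limma on log2(FPKM + 1). In each of these 4 genes the states did not overlap.

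Auxin, jasmonate and nitrogen genes are given as single examples, since their lists had calls in both directions. Auxin response lay below the shares among all descriptions, which were 10.5% higher and 11.2% lower. Jasmonate synthesis had 3 of 17 called higher (17.6%) and 1 lower (5.88%), and nitrogen assimilation 8 of 47 (17%) and 7 (14.9%). SAUR50, of the auxin-responsive growth family, fell from 78.8, 141 and 173 to 12.1, 17.2 and 39.8, by 2.82 ± 0.32 (edgeR, adjusted p = 0.000239), in a list with 3 of 50 called higher and 4 lower. Lipoxygenase 6, which starts jasmonate synthesis in the chloroplast, rose from 4.11, 5.17 and 6.82 to 22.1, 38.7 and 51.7 (2.15 ± 0.22, edgeR, adjusted p = 0.000152). NRT1/PTR FAMILY 6.4, a member of a nitrate and peptide transporter family, rose from 4.37, 8.93 and 11.5 to 27.8, 41.9 and 45.6 (2.2 ± 0.27, edgeR, adjusted p = 0.000308), and ammonium transporter 2 fell from 21.1, 29.4 and 38.4 to 5.44, 9.81 and 15.1, by 1.66 ± 0.22 (edgeR, adjusted p = 0.000451). The largest rises with a mean of at least 5 FPKM included dehydrodolichyl diphosphate synthase 2, from 0, 0.0536 and 0.275 to 3.71, 14 and 21.3, and apyrase, from 0.0654, 0.199 and 0.929 to 9.58, 18.9 and 80.5. Cell number regulator 9 was among the largest falls, from 32.9, 81.2 and 172 to 0, 0.105 and 0.874.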
